A study of Homo sapiens with 16 samples.

Results

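HMC3 is an established line of immortalized human microglial cells, the resident immune cells of the brain. The comparison described here is that of 2 RNA-seq libraries of HMC3 cells treated for 24 h with 0.1 nM estradiol (E2) and 2 libraries of cells treated with vehicle for 24 h. These are 4 of the 16 libraries of the series. They were picked by their labels, and the comparison was chosen with earlier results of these data known. The other groups, also 2 libraries each, received ketamine or 1 of 2 forms of its metabolite hydroxynorketamine (HNK) at 400 nM, without or with 0.1 nM E2, for the same time. The forms were (2R,6R)-HNK and its mirror image (2S,6S)-HNK. Cells were grown with 10% fetal bovine serum and, per the methods of the study, moved first to charcoal-stripped serum, which is depleted of steroids, and then to medium without serum, in which drugs were given without phenol red. The cells are a single immortalized line. The sources used here do not say whether the libraries of a group came from separate cultures, so p-values measure the spread between these libraries, which may be technical. The vehicle libraries held 61599174 and 60115434 counts and the E2 libraries 62267790 and 58865355.

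E2 is the main female sex steroid. It diffuses into cells and binds estrogen receptors alpha (ESR1) and beta (ESR2), transcription factors that are held ready for the hormone by the HSP90 chaperone, bind estrogen response elements in DNA and recruit coactivators or corepressors. The membrane receptor GPER1 passes on rapid signals through kinases, which can switch on immediate early genes. In microglia and macrophages, estrogens are best known for dampening inflammatory responses.

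The receptors themselves were at very low levels. In the 4 libraries ESR1 had a count of 0, which allows up to 3 counts in a library. That is 0.0482 to 0.0510 CPM (counts scaled to the library size), here without the TMM factors of edgeR. All other CPM values include those factors. ESR2 had 27 and 32 counts in the vehicle libraries and 37 and 28 in the E2 libraries. GPER1 had 51 and 69 counts under vehicle and 84 and 92 under E2. The ESR2 groups overlapped and the GPER1 groups did not, but neither gene passed the test, with adjusted p of 0.819 and 0.0595. All adjusted p-values are from the quasi-likelihood test of edgeR, fitted to all 16 libraries with a mean for each group, and adjusted by Benjamini-Hochberg over the 16004 genes tested. The labelled cell type was weakly marked. Of 30 markers of microglia and macrophages, 18 had at most 7 counts in each of the 4 libraries, among them AIF1, P2RY12, TMEM119, PTPRC and SPI1, and 7 (C1QA, C1QB and C1QC included) were at 0 in all 4. The summed level of the 30 markers was 128 and 132 CPM under vehicle and 107 and 104 CPM under E2. Of the 12 that were tested, 4 rose (33.3%) and 1 fell (8.33%), against 29.9% and 32.7% of all genes tested. The 20 markers of fibroblasts and mesenchymal cells summed to 24356 and 24997 CPM under vehicle and to 25630 and 25417 CPM under E2. FN1 (923967 and 933414 counts under vehicle) and COL1A1 (247184 and 241262) had the largest counts. Another 5 of the 20 (COL3A1, LUM, DCN, POSTN and PRRX1) were too low to be tested, so the sum does not mark a full fibroblast profile. In bulk RNA a change in the number of cells of a type and a change in RNA per cell cannot be told apart.

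At an adjusted p under 0.05 with no limit on size, 4780 genes (29.9% of those tested) were higher and 5227 (32.7%) were lower under E2 than under vehicle. The spread between libraries of a group was small, so shifts of this size were called even where they were modest: the median absolute log2 fold change of these genes was 0.42. A gene is called changed below where it passed this test and its level moved 2-fold or more up or down, a limit of 1 on the log2 scale. There were 290 such genes, 1.81% of those tested, of which 187 were higher (1.17%) and 103 lower (0.644%). Higher genes made up 64.5% of them, and 75.9% (246 against 78) when libraries were scaled by their upper quartile, which moved the median of all genes to 0.06. Most were rare transcripts. In 207 of the 290 the mean of the 4 libraries was under 1 CPM, and 83 (40 higher, 43 lower) were at or above it. From 50 CPM up, 4233 genes were tested and 6 changed, all of them lower.

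**Figure D1:**
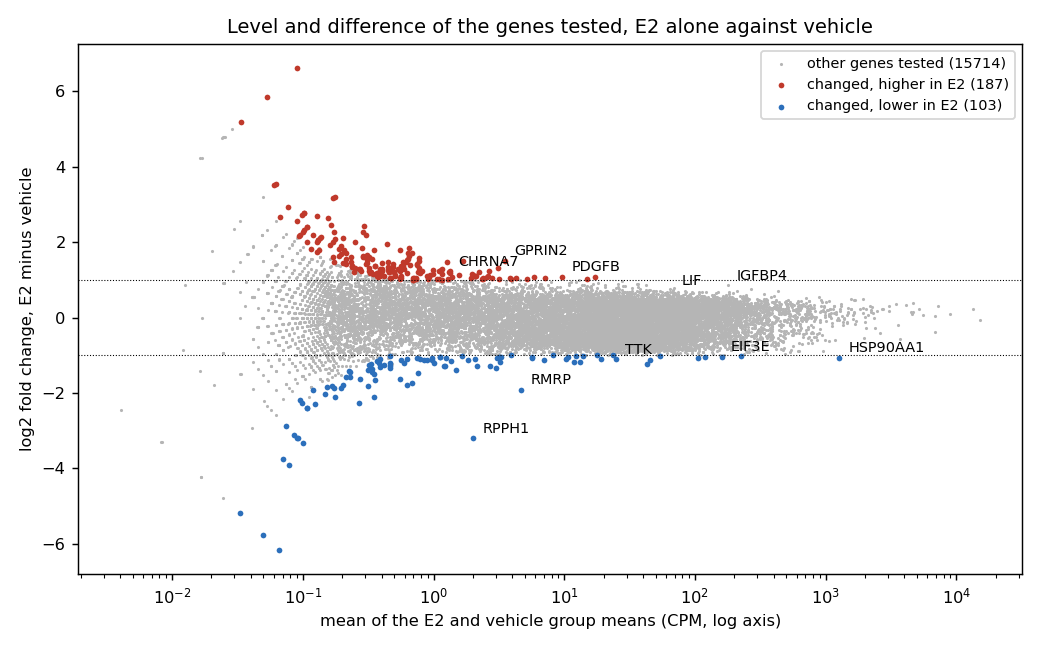
Mean level of each gene tested in CPM (log axis) against its log2 fold change, E2 minus vehicle. Red and blue points are the 187 and 103 changed genes, grey points the others, and dotted lines mark the limit of 1 on the log2 scale. Most changed genes lie at low levels, and all 6 changed genes of at least 50 CPM, HSP90AA1 among them, lie on the lower side.

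Chaperones were the group that fell most broadly. Chaperones fold new proteins, refold damaged ones, and keep steroid receptors able to bind hormone. Of 66 chaperones and cochaperones tested, 42 (63.6%) fell, 13 (19.7%) rose and 11 did not pass, against 32.7% lower and 29.9% higher among all genes, and the median log2 fold change was -0.46. HSP90AA1, the inducible cytosolic HSP90 (chromosome 14, 102547079 to 102606036 on GRCh37, minus strand), was at 1717 and 1726 CPM under vehicle and at 829 and 811 CPM under E2. It thus lay at less than 50% of its vehicle level in both E2 libraries, a fall by 1.07 on the log2 scale (SE 0.02, edgeR adjusted p = 4.2e-38). CHORDC1, a cochaperone that binds HSP90 (chromosome 11, 89933597 to 89956245, minus strand), stood at 60.2 and 60.7 CPM under vehicle and 26.4 and 24.9 CPM under E2. It fell by 1.24 (SE 0.05, edgeR adjusted p = 5.48e-25), the largest fall of the list, and its groups were far apart. HSP90B1, the HSP90 of the endoplasmic reticulum, went from 693 and 707 CPM to 370.5 and 369 CPM, a fall by 0.92. HSPA8, the constitutive HSP70, had 2293 and 2376 CPM under vehicle and 1604 and 1606 CPM under E2, a fall by 0.54. The chaperonin subunits CCT8 (-0.85) and TCP1 (-0.68), the mitochondrial chaperonin HSPD1 (-0.83) and the J-domain cochaperone DNAJA1 (-0.84) were also lower. HSF1, the factor that drives the heat shock response, was higher (0.37). The stress-inducible HSPA1A (0.08) and HSPA1B (0.09), near-identical genes among which reads cannot be divided with certainty, moved little, and the groups of HSPA1B overlapped. CRYAB, a small heat shock protein, rose from 5.79 and 5.87 CPM to 8.75 and 9.28 CPM. DNAJA4 also passed (0.62, edgeR adjusted p = 0.0309), but not without the first vehicle library (0.33) or the second E2 library (0.32). Exons of HSP90AA1 overlap those of WDR20 on the other strand and exons of CRYAB those of HSPB2. Whether the counts separate strands is not given in the sources used here.

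Promoters of these genes are shown because 42 of the 66 chaperones fell and because their response to stress runs through heat shock elements. RefSeq windows of 250 bases before to 50 bases after a transcription start (GRCh38.p14) matched 12112 of the genes tested, 17528 windows in all, with several windows for genes with several starts. The element searched was 3 units, GAANNTTCNNGAA or on the other strand TTCNNGAANNTTC, and this search was chosen after the fall of the chaperones had been seen. It lay in a window of 59 of the 12112 genes (0.487%). Of these 59 genes, 23 fell (39%) and 10 rose (16.9%), against 35.6% and 31.1% of all genes with a window. Of 55 chaperones with a window, 38 fell and 9 rose whether or not they held it. It lay in 7 of the 38, HSP90AA1, HSP90AB1, HSPA8, HSPD1, DNAJA1, DNAJB6 and CHORDC1, and in 0 of the 9, numbers too small to tie the element to the direction. The 250 bases before the start of CHORDC1 (chr11:90223050-90223299, minus strand), HSPA8 (chr11:123062137-123062386, minus strand) and DNAJB6 (chr7:157336754-157337003, plus strand), genes with a single window, follow with the bases of the element in capitals.
CHORDC1: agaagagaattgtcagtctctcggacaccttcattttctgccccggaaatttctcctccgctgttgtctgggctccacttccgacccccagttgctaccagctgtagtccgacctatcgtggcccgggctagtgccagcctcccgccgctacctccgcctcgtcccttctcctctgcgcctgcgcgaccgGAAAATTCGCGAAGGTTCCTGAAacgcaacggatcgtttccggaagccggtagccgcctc
HSPA8: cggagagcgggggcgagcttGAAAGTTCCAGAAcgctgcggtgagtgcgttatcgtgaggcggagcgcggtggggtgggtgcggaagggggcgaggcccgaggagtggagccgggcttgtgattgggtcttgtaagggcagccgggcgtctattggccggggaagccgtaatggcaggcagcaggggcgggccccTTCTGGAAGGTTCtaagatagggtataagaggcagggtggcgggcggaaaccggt
DNAJB6: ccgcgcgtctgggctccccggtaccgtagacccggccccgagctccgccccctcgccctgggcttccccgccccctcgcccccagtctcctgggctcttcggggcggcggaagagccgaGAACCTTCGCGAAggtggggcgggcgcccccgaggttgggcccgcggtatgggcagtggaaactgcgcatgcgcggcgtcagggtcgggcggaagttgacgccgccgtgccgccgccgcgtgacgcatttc
In CHORDC1 the element matched at 3 overlapping positions that begin 60, 55 and 50 bases before the start. HSPA8 had matches beginning 230 and 55 bases before it and DNAJB6 1 match beginning 131 bases before it. A match is a description of the letters and not evidence of a site in use.

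The other abundant genes that fell most belong to varied machinery. TWF1, a twinfilin that binds actin monomers, had 142 and 146 CPM under vehicle and 70.4 and 67.1 CPM under E2 (log2 fold change -1.06). ANXA1, an annexin with anti-inflammatory effects in leukocytes, had 160.5 and 162 CPM against 77.2 and 79.5 CPM (-1.04). EIF3E, a subunit of the translation initiation factor eIF3, had 209.6 and 222 CPM against 107 and 104 CPM (-1.03). PSMC6, an ATPase subunit of the proteasome, and ALCAM, a cell adhesion molecule, each fell by 1.02. The libraries of a group differed little beside these differences, and for none of the 5 did the groups come near each other (edgeR adjusted p from 8.05e-33 to 5.19e-23). After the correction for GC content and length that is described with base composition, the falls of TWF1 (-0.58), PSMC6 (-0.51), EIF3E (-0.48), ANXA1 (-0.47) and ALCAM (-0.46) still passed but, like that of HSP90AA1, were under the limit of 1.

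**Figure D2:**
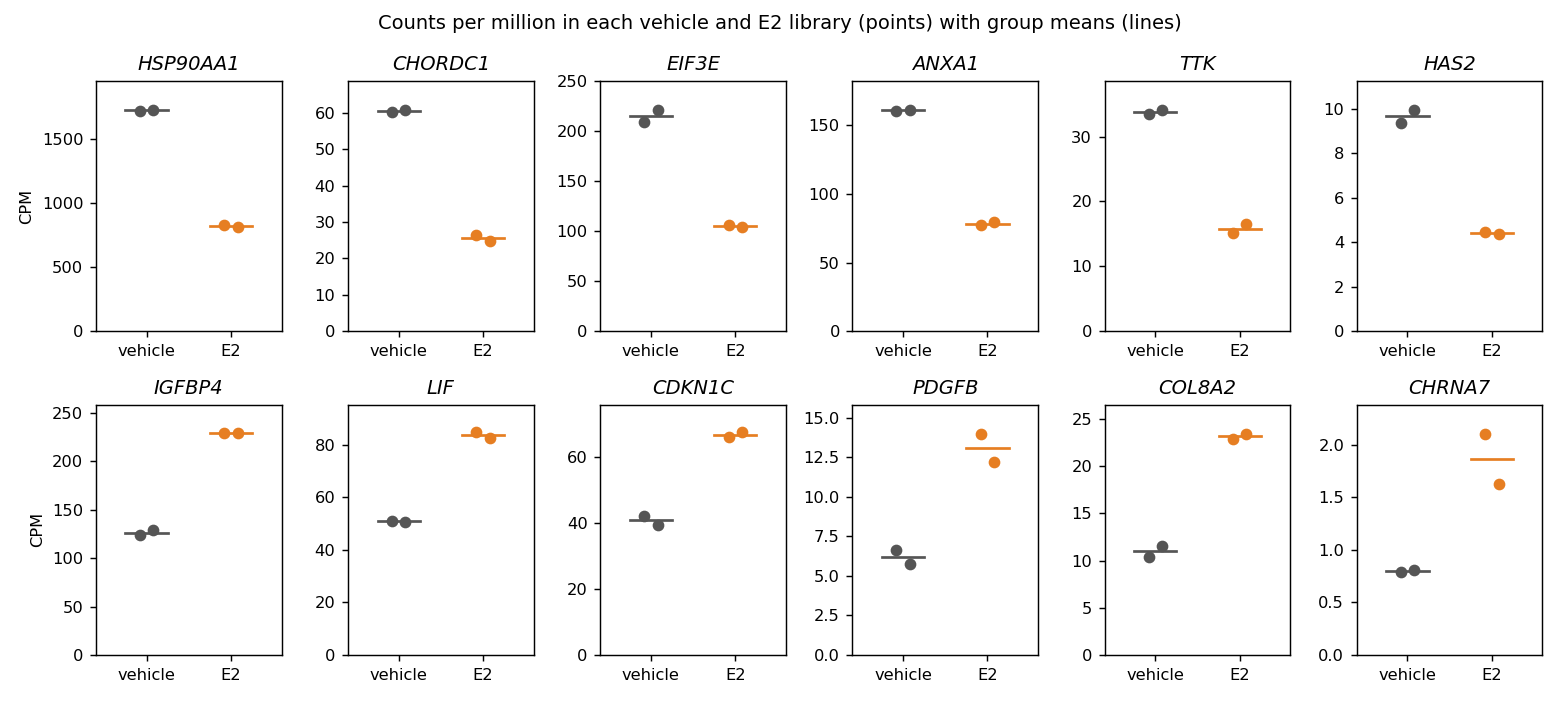
Level of 12 genes in CPM (linear axes from 0) in each of the 2 vehicle and 2 E2 libraries (points), with group means (lines). The upper 6 genes were lower and the lower 6 higher under E2, and the groups do not overlap in any panel.

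Genes of the cell cycle, of protein import into mitochondria, of the respiratory chain and of the ribosome had more falls than rises, as did all genes (32.7% against 29.9%). The shares that fell were 53.7%, 61.5%, 47.4% and 49.4%, and the shares that rose 34.3%, 23.1%, 33.3% and 37.7%, and the medians of the last 2 lists were near 0. Of 67 genes of the cell cycle and DNA replication, 36 fell and 23 rose, with a median of -0.15. TTK, a kinase of the spindle checkpoint, went from 33.5 and 34.1 CPM to 15.1 and 16.5 CPM (-1.10, SE 0.06, edgeR adjusted p = 7.86e-21), and the mitotic motor KIF11 from 148 and 152 CPM to 81 and 77.7 CPM (-0.92). CDK1 (-0.88), TOP2A (-0.84) and MKI67 (-0.74) were lower as well. The inhibitors of cyclin-dependent kinases CDKN1A (p21) and CDKN1C (p57) were the 2 largest rises of this list: CDKN1A went from 116 and 115 CPM to 184 and 186 CPM (0.67) and CDKN1C from 42.2 and 39.4 CPM to 66.0 and 67.6 CPM (0.71). Several replication genes, MCM2 (0.42), MCM5 (0.47) and CDT1 (0.52), rose too, so the list did not move as a block. Of 39 genes of mitochondrial import and the intermembrane space 24 fell and 9 rose (median -0.23), and 14 fell and 7 rose after the correction for GC content and length (median -0.09). CCDC58, a small mitochondrial protein, had 17.0 and 16.1 CPM against 7.06 and 7.46 CPM (-1.19). CHCHD7 fell by 0.70, while CHCHD5 (0.43) and GFER (0.40) rose. Of 78 nuclear-encoded respiratory chain genes 37 fell, with CYCS (cytochrome c, -0.88) and NDUFA5 (-0.86) lowest, and 26 rose, with ATP5D (0.53) and NDUFS7 (0.47) highest. Of 77 cytosolic ribosomal protein genes 38 fell and 29 rose, from RPS24 at -0.88 and RPL7 at -0.61 to RPS2 at 0.37. These genes have many processed copies in the genome, among which short reads can be hard to divide.

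On the higher side, the 6 abundant genes with the largest rises were IGFBP4, NAB2, JUND, OBSL1, LIF and CDKN1C. IGFBP4, which binds insulin-like growth factors outside the cell (chromosome 17, 38599702 to 38613977, plus strand), had 124 and 129 CPM under vehicle and 229 and 229.9 CPM under E2, a 1.82-fold level. The log2 fold change was 0.86 (SE 0.03, edgeR adjusted p = 6.04e-28) and the libraries of each group lay close together. NAB2, a corepressor of the EGR factors, went from 51.1 and 49.6 CPM to 85.5 and 89.5 CPM (0.80). Exons of NAB2 overlap those of STAT6 on the other strand. LIF, a cytokine of the interleukin-6 family, went from 51.2 and 50.5 CPM to 85.0 and 82.6 CPM (0.72). JUND, a subunit of the AP-1 transcription factor, rose by 0.77 and OBSL1, a cytoskeletal adaptor, by 0.75. All 6 had higher values in both E2 libraries than in either vehicle library. After the correction for GC content and length all 6 still passed, at 0.45 for IGFBP4, 0.41 for LIF, 0.40 for NAB2, 0.29 for OBSL1, 0.22 for JUND and 0.20 for CDKN1C.

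Immediate early genes, which respond within minutes to growth factors and other signals, rose in the largest share of any list. Of 35 tested, 27 (77.1%) rose, 2 fell and 6 did not pass, with a median of 0.25. Among all genes 29.9% were higher and 32.7% lower. After the correction for GC content and length, 17 of the 35 rose and 4 fell (median 0.10). FOSB had 0.785 and 0.806 CPM under vehicle and 2.00 and 1.64 CPM under E2 (1.20, SE 0.22, edgeR adjusted p = 3.9e-06). ARC, a regulator of synaptic receptors that is also used as an activity marker in neurons, had 2.73 and 2.33 CPM against 4.69 and 5.71 CPM (1.04). FOS (0.96), IER5L (0.89), JUNB (0.78), DUSP2 (0.77) and NR4A1 (0.63) followed, whereas EGR1 (0.23), JUN (0.07) and MYC (0.14) rose little. The 2 members that fell were DUSP6 (-0.58), a phosphatase that acts on ERK kinases, and KLF6 (-0.21).

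Genes known as estrogen-induced from breast cancer cells moved in both directions. Of 54 tested, 23 rose (42.6%), 12 fell (22.2%) and 19 did not pass, and the median was 0.11. Among all genes 29.9% were higher and 32.7% lower. After the correction for GC content and length, 11 of the 54 rose and 13 fell (median 0.01). Next to IGFBP4, CYP1B1, an enzyme that hydroxylates estradiol, had 6.93 and 5.82 CPM under vehicle and 11.2 and 11.4 CPM under E2 (0.82, SE 0.10, edgeR adjusted p = 4.38e-10). RAPGEFL1 (0.80), E2F1 (0.52), SLC7A5 (0.51) and CTSD, the lysosomal protease cathepsin D (0.44), also rose. GREB1 (0.01) and XBP1 (0.12), among the best known targets, moved little, GREB1 without passing the test, and PGR and TFF1 were too low to be tested. TFF3 was the single member called changed (2.11), from 2 and 4 counts to 21 and 6. NRIP1, a corepressor that estrogen induces in breast cells, had 87.7 and 85.6 CPM under vehicle and 47.3 and 48.9 CPM under E2 (-0.85). RBBP8 (-0.77) and CCND1, cyclin D1 (-0.51), fell too. Exons of CYP1B1 overlap those of RMDN2 and of an antisense gene.

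Promoter windows were also searched for the estrogen response element GGTCANNNTGACC, a palindrome, and for 1 arm of it, GGTCA or TGACC. The full element lay in a window of 3 of 12112 genes and of 0 of 41 classical estrogen-induced genes with a window, which says only that these letters are not there. An arm lay in 42.1% of all genes with a window, in 8 of 18 classical genes that rose (44.4%) and in 5 of 9 that fell (55.6%). The 250 bases before the start of CTSD (chr11:1763928-1764177, minus strand), which is shown as a classical target that rose, though not after the correction for GC content (-0.03), hold 3 such arms, in capitals, beginning 195, 43 and 18 bases before it.
CTSD: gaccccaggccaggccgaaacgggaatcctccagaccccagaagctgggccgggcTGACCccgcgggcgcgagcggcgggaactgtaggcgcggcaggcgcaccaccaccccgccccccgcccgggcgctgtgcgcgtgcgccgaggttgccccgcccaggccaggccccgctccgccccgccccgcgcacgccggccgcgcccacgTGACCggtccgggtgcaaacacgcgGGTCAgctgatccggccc

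Coregulators, the proteins that receptors recruit, were mostly lower. Of 26 tested, 15 fell (57.7%), 6 rose (23.1%) and 5 did not pass, with a median of -0.28. Among all genes 32.7% were lower and 29.9% higher. The coactivators NCOA1 (-0.43), NCOA2 (-0.44) and NCOA3 (-0.39) fell, as did the mediator subunit MED1, which had 141 and 144 CPM under vehicle and 93.9 and 88.9 CPM under E2 (-0.64). The corepressor NCOR1 fell by 0.51. PHB2, a prohibitin that can repress estrogen receptors, rose by 0.33.

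Genes of the extracellular matrix and of growth factor signalling rose more often than they fell, where 29.9% of all genes rose and 32.7% fell. Of collagens 51.7% rose and 10.3% fell, and of matrix glycoproteins and proteases 55.9% and 20.3%. Growth factors and receptors had 47.8% and 15.2%, and contractile and YAP or TGF-beta responsive genes 45.9% and 32.4%. Of 29 collagen genes 15 rose and 3 fell (median 0.29). COL8A2, a collagen of basement membranes, had 10.4 and 11.5 CPM under vehicle and 22.9 and 23.5 CPM under E2 (1.08, SE 0.06, edgeR adjusted p = 2.05e-20). COL9A3 (0.80), COL7A1 (0.68) and COL1A1 (0.39) were higher, and COL12A1 (-0.49) and COL11A1 (-0.40) lower. Of 59 matrix glycoproteins and proteases 33 rose and 12 fell (median 0.22), with MMP11, a matrix metalloproteinase (0.99), and BGN, the proteoglycan biglycan (0.68), highest. HAS2, which makes hyaluronan, had 9.37 and 9.95 CPM under vehicle and 4.47 and 4.37 CPM under E2 (-1.13, SE 0.11, edgeR adjusted p = 6.79e-13). P4HA1, a prolyl hydroxylase that collagen folding requires, went from 181 and 184 CPM to 91.9 and 93.7 CPM (-0.97). Of 46 growth factors and receptors 22 rose and 7 fell (median 0.16). PDGFB, a chain of platelet-derived growth factor, had 6.62 and 5.72 CPM against 14 and 12.2 CPM (1.09, SE 0.09, edgeR adjusted p = 6.73e-15), and its receptor PDGFRB rose by 0.53 while PDGFRA (-0.53) and the hepatocyte growth factor receptor MET (-0.66) fell. Of 37 contractile and YAP or TGF-beta responsive genes 17 rose, LTBP3 most among those above 1 CPM (0.69), and 12 fell, with TGFBR3 (-0.70) and CALD1 (-0.68) lowest. For these 37 the balance turned after the correction for GC content and length, to 6 rises and 20 falls (median -0.13).

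Immune genes moved in both directions. Of 50 interferon-stimulated genes 20 rose and 10 fell (median 0.16), and 22 rose and 3 fell once trends with GC content and length had been removed. IRF7, a transcription factor of the interferon response, rose by 0.67 to 46.5 and 49.6 CPM under E2, and IFI35 rose by 0.61, while IFIT5 (-0.75) and HERC5 (-0.61) fell. The share that rose was 40% in this list, 29.7% among cytokines and chemokines, 50% among genes of MHC class I presentation, 30% among complement genes and 23.8% among prostanoid genes, where 29.9% of all genes rose. In the same order, the shares that fell were 20%, 8.11%, 22.7%, 20% and 14.3%, where 32.7% of all genes fell. Of 37 cytokines and chemokines tested, 11 rose and 3 fell, and 4 rose and 3 fell after that correction. Besides LIF, GDF15 rose from 1.55 and 1.86 CPM to 3.46 and 2.81 CPM (0.88). Falls were TGFB2 (-0.49), INHBA (-0.35) and BMP4 (-0.19). The inflammatory cytokines IL6 (-0.28), IL1B (0.57) and CXCL8 (-0.59) had means of at most 1.01 CPM under vehicle and did not pass, and TNF was too low to be tested. Of 22 genes of MHC class I presentation 11 rose and 5 fell. NLRC5, the activator of these genes, had 3.53 and 3.29 CPM against 7.22 and 6.56 CPM (1.02, SE 0.12, edgeR adjusted p = 9.78e-11), and the immunoproteasome subunit PSMB8 rose by 0.56, while the chaperone CANX (-0.59) and the peptidase ERAP1 (-0.41) fell. Exons of PSMB8 overlap those of PSMB9. Of 20 complement genes 6 rose, C1R most (0.87), and 4 fell, with CD59, which shields cells from complement (-0.57), and MASP2 (-0.54) lowest. Of 21 genes of prostanoid synthesis and reception 5 rose and 3 fell, and 2 rose and 3 fell after the correction. PTGIS, which makes prostacyclin, went from 3.74 and 3.74 CPM to 8.39 and 7.46 CPM (1.08, SE 0.11, edgeR adjusted p = 5.9e-12). The thromboxane receptor TBXA2R rose by 0.49, and LTA4H (-0.52), PTGER2 (-0.51) and PTGES3 (-0.43) fell.

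Lists were also made after 5 pathways that the study ranked for E2 on these same libraries, so that their direction is not independent evidence. The members were chosen here, and steroid and retinoid metabolism stands in for the terpenoid metabolism that the study ranked. Beside the 29.9% of all genes that rose and the 32.7% that fell, the shares were 36.8% and 15.8% for steroid and retinoid metabolism, 31.6% and 5.26% for cholinergic genes, 37.5% and 34.4% for regulators of coagulation, 44.4% and 11.1% for claudins and other adhesion genes, and 50% and 11.1% for exocytosis. Of 38 genes of steroid and retinoid metabolism 14 rose and 6 fell (median 0.25). DHRS3, a retinal reductase (0.96), CYP26B1, which degrades retinoic acid (0.89), and HSD17B1, which makes estradiol (0.39), rose, and HSD17B4, which inactivates it, fell from 94.2 and 94.6 CPM to 62.0 and 59.6 CPM (-0.64). STS, which frees steroids from sulfate, fell by 0.49, and CYP19A1, the aromatase, was too low to be tested. Of 19 cholinergic genes 6 rose and 1 fell (median 0.32). CHRNA7, a nicotinic receptor subunit (chromosome 15, 32215641 to 32465219, plus strand), had 0.785 and 0.806 CPM under vehicle and 2.10 and 1.63 CPM under E2 (1.23, SE 0.24, edgeR adjusted p = 1.68e-05). A partial duplicate of CHRNA7 elsewhere on the chromosome can share its reads. LYNX1, which modulates nicotinic receptors, rose by 0.88, and CHRNA5, whose exons overlap those of CHRNA3, was the single fall (-0.24). Of 32 negative regulators of coagulation 12 rose and 11 fell (median 0.09), PDGFB, PTGIS and APOE (1.0) among the rises and ENPP4 (-0.83) and TFPI, the tissue factor pathway inhibitor (-0.65), among the falls. Of 18 claudins and other adhesion genes 8 rose, CLDN23 (0.95) and CLDN3 (0.70) highest of those above 1 CPM, and CLDN12 (-0.54) and CLDN1 (-0.30) fell. Of 36 genes of calcium-triggered exocytosis 18 rose, with SYTL1 (0.86) and DOC2A (0.81) highest of those above 1 CPM, and 4 fell, with RAB3GAP1 (-0.84) and STXBP5 (-0.73) lowest.

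Metabolic and stress lists held both rises and falls, where 29.9% of all genes rose and 32.7% fell. The shares that rose and fell were 54.3% and 37.1% for cholesterol and fatty acid synthesis, 31.1% and 40% for glycolysis and hypoxia, 50% and 28.8% for ATF4 targets and the unfolded protein response, and 33.3% and 46.7% for NRF2 and metallothionein genes. Of 35 genes of cholesterol and fatty acid synthesis 19 rose and 13 fell. TM7SF2 (0.68), SREBF1 (0.58) and FASN (0.50) rose, while SC5D (-0.69), GGPS1 (-0.61) and HMGCS1 (-0.55) fell. Of 45 glycolysis and hypoxia genes 14 rose and 18 fell, from P4HA1 (-0.97) and INSIG2 (-0.74) to PFKL (0.37) and BHLHE40 (0.43). After the correction for GC content and length 4 of these rose and 27 fell (median -0.14). Of 52 ATF4 targets and genes of the unfolded protein response 26 rose, with CEBPB at 0.62, and 15 fell, with the tRNA synthetases EPRS (-0.92) and NARS (-0.85) lowest. After the same correction 14 of the 52 rose and 22 fell (median -0.04). Of 30 NRF2 and metallothionein genes 10 rose, with the pentose phosphate enzyme TKT (0.54) highest, and 14 fell, GCLC (-0.55) and the zinc exporter SLC30A1 (-0.69) among them. The lowest value of the list was that of the metallothionein MT1G (-2.88, SE 1.16, edgeR adjusted p = 0.0278), named here after its values were seen, which rested on 6 and 10 deposited counts under vehicle and 2 and 0 under E2. Of 50 clustered histone genes, most near 1 CPM or below and alike in sequence, 3 rose (6%) and 4 fell (8%). Among those of at least 1 CPM, HIST1H3D (0.54) and HIST3H2A (0.37) rose most, and HIST1H1B (-1.20) and HIST1H1E (-0.71) fell most. The fall of HIST1H1B did not pass without the first vehicle library (-0.77).

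**Figure D3:**
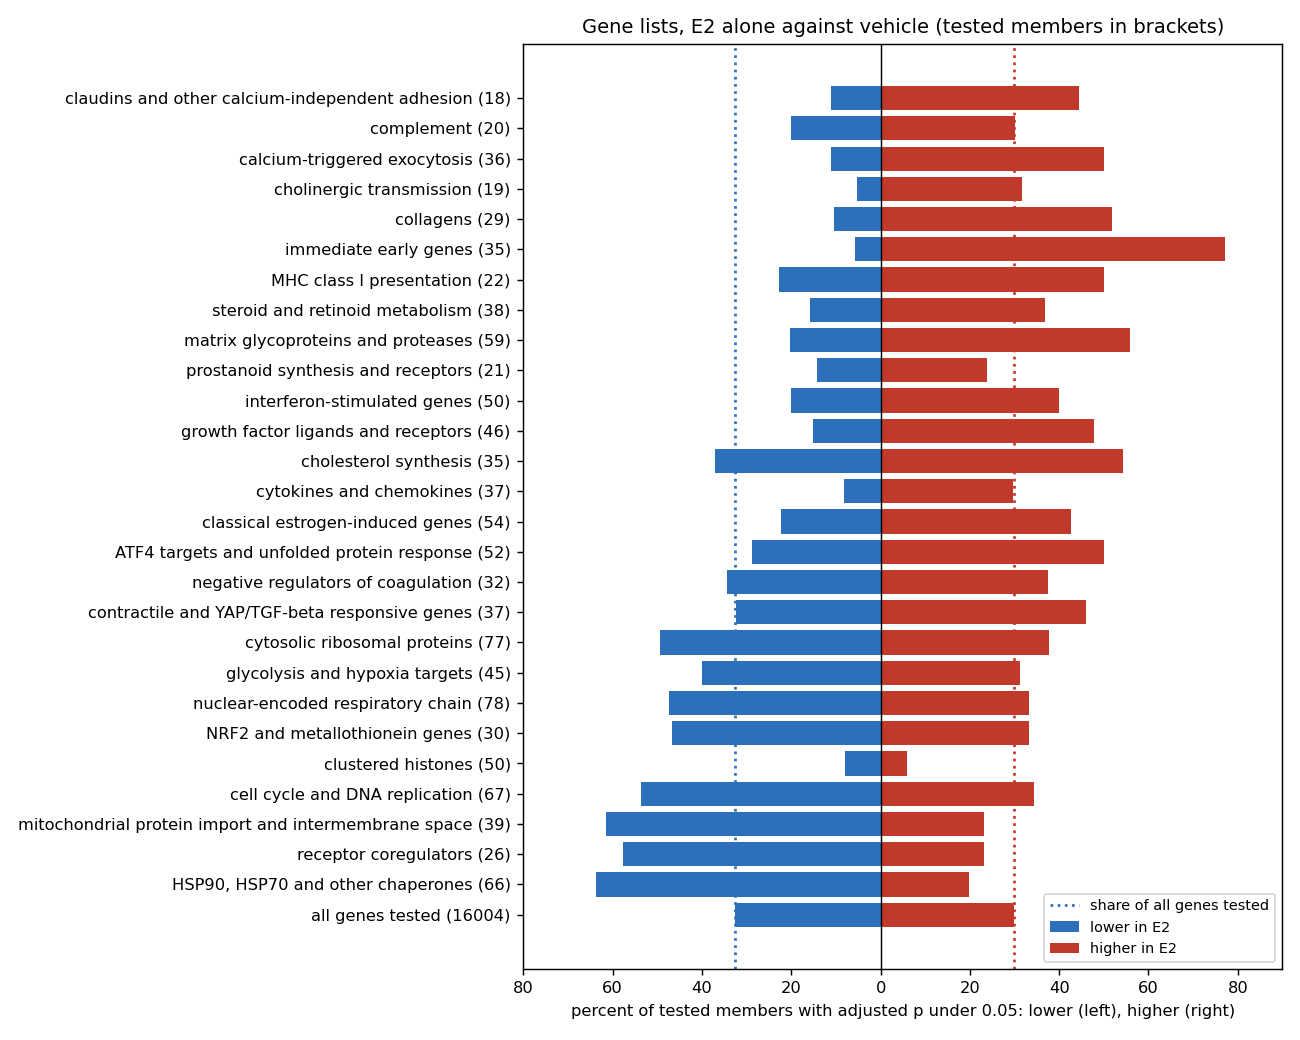
Percent of the tested members of each gene list that passed an adjusted p under 0.05, lower under E2 to the left and higher to the right, with the number tested in brackets and the shares of all 16004 genes as dotted lines (32.7% and 29.9%). Chaperones reach furthest to the left (63.6%) and immediate early genes furthest to the right (77.1%).

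Among changed genes of at least 1 CPM, the largest rises were GPRIN2 (chromosome 10, 46992959 to 47007881, plus strand), a protein that binds G proteins, and ELF3, an epithelial ETS factor. GPRIN2 had 2.01 and 1.66 CPM under vehicle and 5.30 and 5.14 CPM under E2 (1.51, SE 0.15, edgeR adjusted p = 9.6e-13). ELF3 went from 0.932 and 0.822 CPM to 2.58 and 2.41 CPM (1.51, SE 0.20). ANPEP, aminopeptidase N (1.47), ABCC3, an exporter of conjugated steroids and bile acids (1.31), MYO15B (1.29), DENND6B (1.26), AIFM3 (1.24), GAL3ST1, a sulfotransferase of sulfatide synthesis (1.24), TFR2, transferrin receptor 2 (1.22), and APOBEC3D (1.18), whose reads may be shared with its close paralogs, followed. The largest falls were RPPH1 (-3.19) and RMRP (-1.91), the RNA components of RNase P and RNase MRP. RPPH1 had 6.72 and 0.537 CPM under vehicle and 0.336 and 0.458 CPM under E2, so that its fall rested on the first vehicle library, and without it was 0.44 and did not pass (edgeR adjusted p = 0.492). RMRP had 10.9 and 3.96 CPM against 2.24 and 1.71 CPM, and fell by 1.0 without that library. PIH1D2 (-1.38), CAB39L (-1.34), ZNF420 (-1.30), the G protein regulator RGS4 (-1.29), KCNIP4 (-1.29), MPP4 (-1.27) and SFTA1P (-1.17) fell with vehicle libraries closer to each other than those of RPPH1 and RMRP. CAB39L, for example, had 4.30 and 4.35 CPM under vehicle and 2.13 and 1.27 CPM under E2. Exons of PIH1D2 and KCNIP4 overlap other genes on the opposite strand by 1004 and 1587 bases.

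The direction of change followed the base composition of the gene. The median GC content of exons was 59.4% in the changed genes that were higher, 41.2% in those that were lower and 48.7% over all genes tested. Across the 15340 genes with gene models, the log2 fold change and exon GC content had a Spearman rho of 0.76, a description over genes that share the same 4 libraries. The median log2 fold change went from -0.60 in the tenth of genes with the lowest GC content to 0.46 in the tenth with the highest. In the libraries themselves, the mean exon GC content weighted by counts was 50.3% and 50.2% under vehicle and 51.9% in both E2 libraries. Vehicle had the lowest value of the 8 groups, which otherwise ranged up to 52.9%. After a correction that removes trends with GC content and length from every library, whether they arose in the cells or in the libraries, 130 genes changed, and 101 of these, 12 of them without a GC value and so not corrected, were among the 290. For 15 of the 290 there was no GC value, so they were left as they were. The 275 others kept their sign, and 168 of them passed the adjusted p. The fall of HSP90AA1 was 0.89 and that of CHORDC1 0.64 after the correction, the rise of IGFBP4 was 0.45 and that of CHRNA7 1.41. After it, 15.6% of all genes tested passed as higher and 22.4% as lower. Of the chaperones 42 fell and 6 rose (median -0.21), and of the immediate early genes 17 rose and 4 fell (median 0.10). Coregulators had 14 falls and 2 rises, matrix genes 18 rises and 12 falls, collagens 10 rises and 5 falls, and cell cycle genes 37 falls and 14 rises. Among the other lists, classical estrogen-induced genes had 11 rises and 13 falls of 54, ATF4 targets and unfolded protein response genes 14 rises and 22 falls, and contractile genes 6 rises and 20 falls. Respiratory chain genes had 25 rises and 26 falls, and MHC class I genes 7 rises and 6 falls. Interferon-stimulated genes, with 20 rises and 10 falls before the correction, had 22 and 3 after it (median 0.19). Of the lists named for pathways, steroid and retinoid metabolism had 10 rises and 1 fall, cholinergic genes 3 and 1 (median -0.01), regulators of coagulation 9 and 6, claudins and other adhesion genes 4 and 1, and exocytosis 10 and 3. Cholesterol and fatty acid synthesis had 14 rises and 9 falls, growth factors and their receptors 13 and 3, complement 3 and 2, NRF2 and metallothionein genes 7 and 11, clustered histones 1 and 6 and ribosomal proteins 24 and 36. The rise of CTSD was not there after it (-0.03), nor that of GFER (-0.03), and PFKL changed sign (-0.12). Of INHBA (0.04), CLDN1 (0.10), CHRNA5 (0.14) and ERAP1 (0.05), which had fallen, none did. Calls also ended where values moved close to 0, in HSD17B4 (-0.09), TBXA2R (0.06), CLDN12 (-0.05), STXBP5 (-0.12), ATP5D (0.07), NDUFS7 (0.05) and CFD (0.12). They ended as well in CLDN3 (0.18), TFPI (-0.19), STS (-0.22), PDGFRA (-0.22), SMAD6 (0.23), HIST1H3D (0.24), HIST3H2A (0.25), HERC5 (-0.30) and SYTL1 (0.44). DNAJA4 stayed near its size (0.59, edgeR adjusted p = 0.061).

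**Figure D4:**
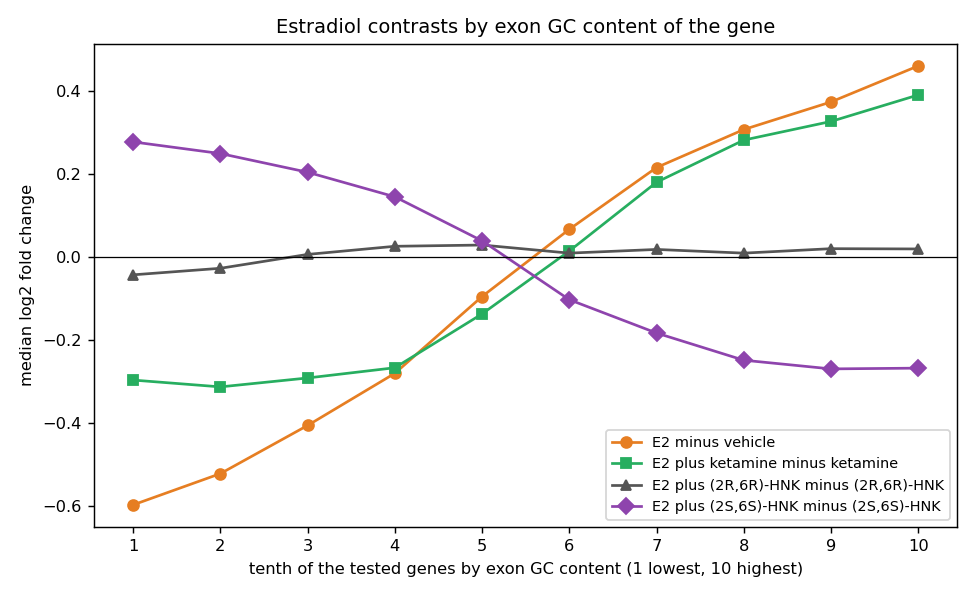
Median log2 fold change of the tested genes in 10 bins of exon GC content, for E2 against vehicle and for E2 added to each drug. The line of E2 against vehicle climbs from -0.60 to 0.46, that with (2R,6R)-HNK stays near 0, and that with (2S,6S)-HNK runs the other way, from 0.28 to -0.27.

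The E2 effect was measured again in libraries with a drug, as E2 with drug minus drug alone, in contrasts that share no library with E2 against vehicle. With ketamine, 33 of the 290 genes passed in the same direction and 12 in the opposite one, where 27.3% of all genes were higher and 30.2% lower. With (2R,6R)-HNK, 56 passed in the same direction and 16 in the opposite one (24.2% and 23.8% of all genes). With (2S,6S)-HNK 3 passed in the same direction and 45 in the opposite one (24.1% and 27.2%). The 290 were mostly rare transcripts, with a median level of 0.45 CPM for the rises and 0.63 CPM for the falls, against 15.6 CPM over all genes tested. Differences of rare transcripts pass less easily, so the shares of all genes are not a like-for-like measure for them. Counting signs alone, 177, 169 and 91 of the 290 had the sign they had under E2 alone. The medians of the 187 rises were 0.05 with ketamine, 0.23 with (2R,6R)-HNK and -0.14 in cells given (2S,6S)-HNK, and those of the 103 falls -0.22, -0.03 and 0.31. The test of the difference, the interaction of E2 and drug, passed for 136 of the 290 with ketamine, 150 with (2R,6R)-HNK and 198 in cells given (2S,6S)-HNK, against 37.5%, 56.6% and 65.1% of all genes tested. Since the genes were chosen for a large difference between the E2 and vehicle libraries, a smaller one elsewhere was built into the choice. The trend with GC content differed too: rho was 0.59 with ketamine, 0.05 with (2R,6R)-HNK and -0.61 in cells given (2S,6S)-HNK, and its part in these counts was tested only by the correction, after which 2 of the 130 genes then changed passed in the same direction with ketamine and 12 with (2R,6R)-HNK, while the count with (2S,6S)-HNK was 3 as before. After it, the interaction passed for 64, 57 and 67 of the 130, against 36.8%, 43.7% and 40.8% of all genes tested. HSP90AA1 fell by 0.14 with ketamine and 0.35 with (2R,6R)-HNK but rose by 0.31 when given beside (2S,6S)-HNK. Across the 66 chaperones 33 fell and 20 rose with ketamine and 43 fell and 10 rose with (2R,6R)-HNK, while with (2S,6S)-HNK 38 rose and 19 fell. Of the 35 immediate early genes 20 rose and 3 fell with ketamine, 7 rose and 14 fell with (2R,6R)-HNK, and 2 rose and 20 fell in cells given (2S,6S)-HNK. IGFBP4 was 0.03 with ketamine, which did not pass, and fell by 0.48 and 0.36 with the HNKs.

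**Figure D5:**
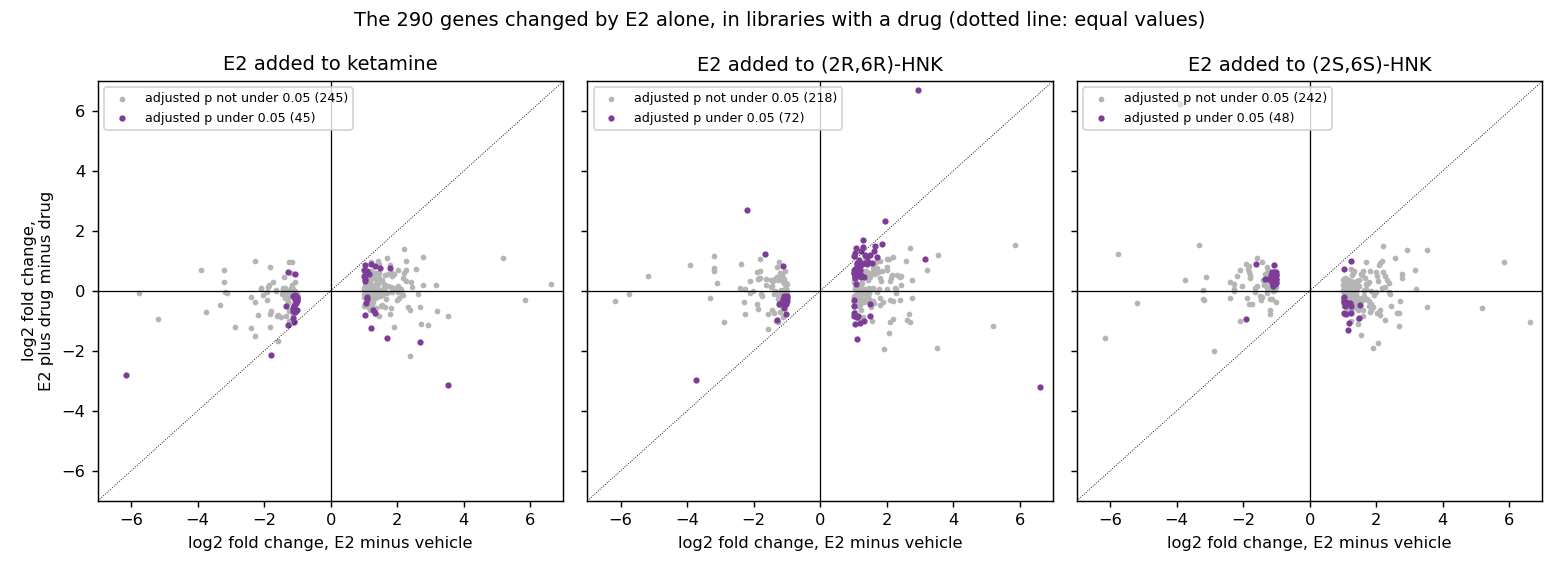
The 290 genes changed by E2 alone, with their log2 fold change under E2 alone (x axis) against that of E2 added to each drug (y axis, panels by drug). Purple points passed an adjusted p under 0.05 in the contrast with drug (45, 72 and 48 genes), and most points lie far from the dotted line of equal values.

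A further comparison set E2 against each drug alone, which leaves the vehicle libraries out. Of the 290 genes, 47 differed between E2 and ketamine, 23 between E2 and (2R,6R)-HNK and 73 between E2 and (2S,6S)-HNK, where 34.6%, 23.8% and 45.6% of all genes tested differed. In 25, 15 and 32 of them E2 lay further from vehicle in the direction of its own change. Because the 290 were mostly rare transcripts, which pass less easily, a gene that did not differ was not thereby shown to be alike. The values against vehicle share the vehicle libraries on which the 290 genes were chosen, so that their likeness is in part built in and is given as a description: the 187 rises had a median of 1.33 under E2, 1.29 under ketamine, 1.24 under (2R,6R)-HNK and 1.4 in cells given (2S,6S)-HNK, and the 103 falls had medians of -1.26, -0.83, -0.99 and -1.06. HSP90AA1, at 829 and 811 CPM under E2, was at 662 and 668 CPM under ketamine, 787 and 781 CPM under (2R,6R)-HNK and 708 and 688 CPM in cells given (2S,6S)-HNK, and vehicle alone stood apart. Of the 290 genes, EIF3E was the single one further from vehicle under E2 whose difference from each of the 3 drugs passed the test. Others, such as CAB39L and GPRIN2, lay further by value without passing against every drug. It had 107 and 104 CPM under E2, 129.6 and 129.6 under ketamine, 115 and 112 under (2R,6R)-HNK and 128 and 117 in cells given (2S,6S)-HNK. Its E2 level was lower by 0.30, 0.11 and 0.21 on the log2 scale (edgeR adjusted p at most 0.0169), and the call did not hold under upper-quartile scaling, after the GC correction or without the second vehicle library.

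With no limit on size, 7 genes passed in the same direction in all 4 contrasts of E2 with its absence, a count that was added after the data had been seen. LIME1, a lymphocyte adaptor, rose by 0.48 against vehicle and by 0.37, 0.37 and 0.30 in the contrasts with the drugs, in the order used above, and DDX12P, a helicase pseudogene whose reads may stem from its parent genes, rose by 0.45, 0.15, 0.16 and 0.24. NEDD4L, a ubiquitin ligase, had -0.25, -0.19, -0.21 and -0.14. ZC3HAV1, an antiviral RNA-binding protein, had -0.22, -0.16, -0.62 and -0.13. MAP1B, which binds microtubules, had -0.39, -0.09, -0.44 and -0.11. GART, an enzyme of purine synthesis, had -0.17, -0.08, -0.16 and -0.09, and ADAR, which edits double-stranded RNA, had -0.08, -0.09, -0.07 and -0.17. None of the 7 reached the limit of 1 in any of these contrasts. By other settings the count was 4 to 13.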

How the data were processed

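Per the labels and the methods of the study, RNA libraries of HMC3 cells were made with an Ovation RNA-seq kit (NuGEN) and sequenced as paired reads. The sources used here do not say whether the libraries or the counting kept the strand. The authors aligned them to hg19 with TopHat2 and Bowtie2 (2.0.14 and 2.2.6 in the submitters' processing notes, while the methods of the study name other versions and which were used is not settled here), counted read pairs per gene with featureCounts 1.4.6, keeping pairs that mapped to 1 place and in concordance, and deposited raw counts without normalization. The even share of counts from 1 to 9 was 65.8%, against 49.9% of counts from 500 up, which was not explained by the sources used here. Whether both reads of a pair were counted is not settled here. If they were, the counts printed exceed the number of read pairs. Counts were halved to see the effect, and 247 genes then changed, against 290. Each library held 55300614 to 81646165 counts. PCR copies cannot be told apart, and the upper limit given for a count of 0 covers counting error only.

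Genes were filtered with filterByExpr of edgeR 4.0.16 (R 4.3.3), which kept 16004 of 25370, and scaled by TMM. The quasi-likelihood fit held all 16 libraries and left 8 residual degrees of freedom. Exact permutation of 2 against 2 libraries cannot give a two-sided p below 0.333, so calls rest on this model. Gene models were those of GENCODE on GRCh37, matched by symbol for 21539 genes and by an older symbol for 1455. The GC and length correction was a loess fit for each library (span 0.5) used as an offset. On simulated counts for E2 against vehicle (16004 genes), edgeR recovered 81% of 100 genes changed by a log2 fold of 0.5 and 84% of 100 changed by 1.5, with 10 false calls. DESeq2 1.42.0 recovered 78% and 81% with 4. In the simulation only these genes were changed and no trend with GC content was put in, unlike in the data. The false calls therefore do not gauge those among the genes called here.

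The gene lists, the genes named and the comparison itself were chosen with earlier results of these data known. The genes named were the 12 largest rises and falls among changed genes of at least 1 CPM whose groups do not overlap, the 6 largest of at least 50 CPM past the adjusted p, the 2 largest rises and falls of each list, the receptors, and up to 5 in each direction differing from each drug. Others are named from the lists for their role, after their values were seen. Genes with provisional, antisense or small RNA names were counted but not named, and some other genes are not reported here.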

Additional observations from a re-analysis of the deposited data

Results flagged for a closer look

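The effect of E2 differed between cells with and without a drug, by the test of the interaction, for 136 of the 290 genes changed by E2 alone with ketamine, 150 with (2R,6R)-HNK and 198 in cells given (2S,6S)-HNK. These are 46.9%, 51.7% and 68.3% of the 290, against 37.5%, 56.6% and 65.1% of all genes tested, so that the share with (2R,6R)-HNK is below that of all genes and the share with (2S,6S)-HNK near it. Every interaction that passed among the 290 went against the direction of the change under E2 alone. The test subtracts the very difference by which the 290 were chosen, so that direction was in part built in. Of the genes named above for their size, those below also passed in the opposite direction when E2 was added to a drug, and the value is the log2 effect of E2 with the drug minus that without it. With (2S,6S)-HNK, rises under E2 alone turned to falls in GPRIN2 (-1.98), CHRNA7 (-1.97), GAL3ST1 (-1.73), TFR2 (-1.61), IGFBP4 (-1.22), NAB2 (-1.21), LIF (-1.07), OBSL1 (-1.04), JUND (-0.90) and CDKN1C (-0.84). Falls turned to rises there in CAB39L (1.75), CHORDC1 (1.62), CCDC58 (1.59), PSMC6 (1.57), EIF3E (1.48), TWF1 (1.47), HSP90AA1 (1.38), ALCAM (1.30) and ANXA1 (1.27). These turned rises had 55.6% to 69.9% exon GC, except CHRNA7 (45.2%), and the turned falls 35.7% to 45.5%. Over all genes, the median E2 effect beside (2S,6S)-HNK was 0.28 in the tenth of lowest GC content and -0.27 in the highest. Under E2 alone these medians were -0.60 and 0.46. The part of this trend in the turns of single genes was not tested. With (2R,6R)-HNK rises turned to falls in ELF3 (-2.36), GPRIN2 (-1.93), CDKN1C (-1.83), LIF (-1.48) and IGFBP4 (-1.34). With ketamine MYO15B (-1.92) turned from a rise to a fall and MPP4 (1.90) from a fall to a rise. Groups of 2 libraries are too small to look for a library far from the rest.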

How the results depend on the processing

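The 290 genes changed by E2 alone became 180 with at least 10 counts required in every library, 130 after the GC and length correction and 129 with it and the replicate block, and 316 to 354 with 1 library left out. The 10007 genes past the adjusted p became 6087 after the correction and 6093 with the block. Of changed genes that passed again with ketamine there were 18 by DESeq2, 2 after the correction with or without the block, and 36 to 59 with a library left out. With (2R,6R)-HNK there were 12 after the correction with or without the block and 68 to 86 with a library left out. Interactions after the correction numbered 64, 57 and 67 of the 130 genes then changed (49.2%, 43.8% and 51.5%, against 46.9%, 51.7% and 68.3% of the 290, and 36.8%, 43.7% and 40.8% of all genes tested after the correction) with the 3 drugs in the order above, and 62, 55 and 65 with the block. The count that differed from each drug (1) was 0 by upper-quartile scaling and after the correction with or without the block, and 0 to 6 with a library left out. The count for all 4 contrasts (7) was 11 by DESeq2, 4 by upper-quartile scaling, 12 after the correction and 13 with the block. The replicate block alone moved none of these counts by over 1.5 times. Deviations of same-numbered E2 and vehicle libraries were uncorrelated over genes (r = -0.00695), so no shared shift was seen. With 1 difference per group this cannot tell whether same-numbered libraries share a culture or batch. Of the 126 genes named by rule, the correction with the block turned GFER (-0.0263, without the block -0.0267), PFKL (-0.12), INHBA (0.0388, 0.0387), CLDN1 (0.10), CHRNA5 (0.13, 0.14) and ERAP1 (0.0481, 0.0478). ESR2 ranged from -0.0432 to 0.2765 with a library left out, against 0.13. The cause of these moves was not tested. With counts halved the ESR2 value was 0.0881.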
